A study of Homo sapiens with 9 samples.

Results

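Organic anion transporting polypeptides are membrane proteins encoded by the SLCO genes. Of 60591 gene symbols in the deposited table, 6 are described here: SLCO1B3, SLCO2A1, SLCO2B1, SLCO3A1, SLCO4A1 and SLCO4C1. They were taken by symbol, and the set was chosen by a measured difference, the far lower count of SLCO2A1 with cobalt (II) chloride (CoCl2) than with the oxyquinoline derivative (OD). The contrast of CoCl2 with OD is therefore given as a description for every member, and SLCO2A1 is described without a test in every comparison. The table holds 12 SLCO genes in all, and the other 6 are given by their counts.

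The cells were undifferentiated Caco-2 (uCaco-2), the proliferating state of a human colon adenocarcinoma line. They were kept for 24 h in medium with 300 μM CoCl2, in medium with 5 μM OD (known by a code number) or in fresh medium as control. By the labels, 0.5% DMSO was added to the CoCl2 and control media, since OD was dissolved in DMSO. Each condition had 3 biological replicates of the same line, whose separate origin in the culture is not detailed, so the p-values measure the spread between these libraries. Both agents stabilise hypoxia-inducible factors (HIF) by acting on the prolyl hydroxylases, OD in the active centre of the enzyme and CoCl2 through the iron site and by other routes.

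The transporters of this family take up bulky organic anions without coupling to sodium. Their substrates include bile salts, steroid sulfates, thyroid hormones, prostaglandins, and drugs such as statins. In the intestine, OATP2B1 (SLCO2B1) brings drugs and conjugated steroids into enterocytes. OATP2A1 (SLCO2A1) is the prostaglandin transporter, which clears prostaglandin E2 from outside the cell before the dehydrogenase HPGD oxidises it, and its inherited loss causes a chronic ulcerating enteropathy.

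The control libraries summed to between 15998136 and 18298190 counts, the CoCl2 libraries to between 16286502 and 24209427, and the OD libraries to between 16387054 and 19623776. The TMM factors, by which edgeR scales libraries for a shift in composition, were 1.11 to 1.12 in control cells, 0.770 to 0.795 with CoCl2 and 1.14 to 1.15 with OD. Levels below are given as CPM, counts relative to this scaled library size of the tested genes. All 6 colon epithelial markers were present (EPCAM, CDH1, KRT8, KRT18, VIL1 and CDX2, summed to 9451 to 12606 CPM over the 9 libraries). With CoCl2 VIL1, a brush border protein, fell by 2.45 on the log2 scale (adjusted p = 1.24e-51). The other 5 were not called, with log2 fold changes from 0.18 (CDX2) to 0.36 (EPCAM). The 4 endothelial markers summed to 2.31 to 3.45 CPM and the 4 leukocyte markers to 0.0538 to 0.479 CPM. The 4 fibroblast markers summed to 82.1 to 113 CPM, mostly from PDGFRA, with COL1A2 at 0 or 1 count, and the 4 hepatocyte markers to 13.01 to 24.7 CPM, mostly from ALB. Of 6 hypoxia response markers 5 were tested, and 5 were called higher with CoCl2 and 4 with OD. Over all tested genes 19.9% were called higher with CoCl2 and 9.09% with OD. The remaining marker, CA9, did not pass the expression filter.

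Of the 6 members, 4 passed edgeR's expression filter, which keeps genes with enough counts in at least the number of libraries of 1 group. These were SLCO2B1, SLCO4A1, SLCO2A1 and SLCO4C1. SLCO1B3 and SLCO3A1 stayed near 0 in all conditions and were not tested. A gene counted as called where its adjusted p was under 0.05 and its level had more than doubled or halved (log2 fold change beyond 1 or -1). Besides SLCO2A1, 3 members were tested, of which SLCO4C1 passed the filter only through the OD libraries, where it was high, so the counts that include it are a description. With CoCl2, 2 of them were called lower and 0 higher than in control cells, where 23.4% of all tested genes were called lower and 19.9% higher. With OD, 2 were called higher and 0 lower, against a background of 9.09% higher and 4.16% lower. Without SLCO4C1, 1 of these members was called with CoCl2 (SLCO2B1, lower) and 1 with OD (SLCO4A1, higher). Both comparisons share the control libraries.

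**Figure D1:**
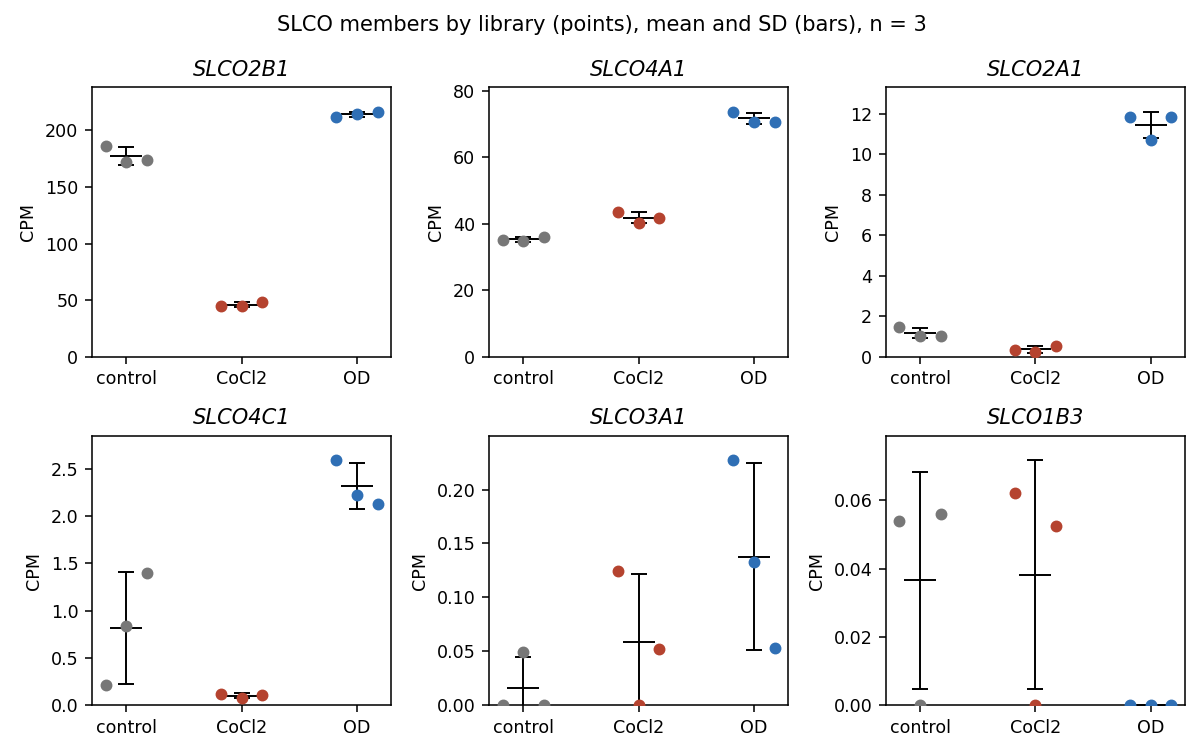
Scaled counts (CPM, vertical axes, each starting at 0) of the 6 members in control, CoCl2 and OD cells. Points are libraries, and bars give the mean and SD of 3. The 3 OD libraries lie above all control libraries for SLCO2B1, SLCO4A1, SLCO2A1 and SLCO4C1, and the CoCl2 libraries lie below them for all of these but SLCO4A1.

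SLCO2B1 was the most abundant member in control cells and lost most of its messenger RNA with CoCl2. The gene (ENSG00000137491) occupies chromosome 11 of GRCh38 from 75100563 to 75206549, plus strand, and shares 4.88% of its exonic bases with TPBGL-AS1 on the other strand. It had 3463, 3517 and 3098 counts in control replicates 1 to 3, which is 186, 172 and 174 CPM. With CoCl2 it had 723, 576 and 926 counts, or 45.0, 44.6 and 48.6 CPM. With OD it had 4667, 4827 and 4065 counts, or 212, 214 and 216 CPM. The CoCl2 libraries were all low, the OD libraries all high, and no groups overlapped. The level fell 3.84-fold with CoCl2, a log2 fold change of -1.94 (standard error 0.049, adjusted p = 2.22e-43 by edgeR). With OD it was 1.21-fold that of control cells, a log2 fold change of 0.27 (standard error 0.042, adjusted p = 8.77e-08), which passed the p threshold and not the one on the fold. VIL1 also fell in these libraries, while the other 5 colon epithelial markers had log2 fold changes of 0.18 to 0.36 with TMM scaling. Whether the fall in SLCO2B1 was part of a wider shift was not tested. In bulk libraries fewer cells with a transcript and less of it per cell cannot be told apart.

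The RefSeq promoter table holds 6 windows for 4 of the members, and none for SLCO2A1 and SLCO4A1. Each window runs from 250 bases before to 50 bases after an annotated start. The windows of SLCO2B1 and SLCO4C1, are shown because these members were called lower with CoCl2. They were searched on both strands for the cores of the hypoxia response element (ACGTG and GCGTG), the antioxidant response element (TGACNNNGC) and the heat shock element (GAANNTTC, the same on both strands). Capitals mark matches. Coordinates are those of GRCh38.p14, and each sequence is written along the strand of its gene.
SLCO2B1, first start, plus strand, chr11:75150857-75151156: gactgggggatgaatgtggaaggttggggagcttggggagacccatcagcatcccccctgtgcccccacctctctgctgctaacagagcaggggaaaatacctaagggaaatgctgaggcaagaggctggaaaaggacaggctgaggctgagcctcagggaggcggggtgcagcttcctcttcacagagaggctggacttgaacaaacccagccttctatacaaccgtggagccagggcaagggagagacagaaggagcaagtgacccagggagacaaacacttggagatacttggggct
SLCO2B1, second start, plus strand, chr11:75159582-75159881: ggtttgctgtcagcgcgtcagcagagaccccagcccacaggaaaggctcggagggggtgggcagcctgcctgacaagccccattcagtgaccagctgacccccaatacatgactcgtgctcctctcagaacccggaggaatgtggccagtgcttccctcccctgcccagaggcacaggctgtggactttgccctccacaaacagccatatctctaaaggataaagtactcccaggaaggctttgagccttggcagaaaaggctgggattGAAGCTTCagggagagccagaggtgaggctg
SLCO4C1, minus strand, chr5:102296235-102296534: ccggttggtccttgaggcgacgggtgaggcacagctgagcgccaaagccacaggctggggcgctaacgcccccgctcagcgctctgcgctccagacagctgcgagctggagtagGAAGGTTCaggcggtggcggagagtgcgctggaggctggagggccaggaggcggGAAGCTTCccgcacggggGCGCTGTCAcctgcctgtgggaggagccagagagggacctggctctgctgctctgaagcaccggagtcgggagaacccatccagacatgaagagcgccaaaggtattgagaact

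The window at the first SLCO2B1 start shown held none of these cores. That at the second start shown held 1 heat shock core, beginning at position 19 from the start. Both windows lie inside the annotated gene, which begins at 75100563, and no window covers that end of SLCO2B1. The SLCO4C1 window held heat shock cores at -136 and -82 and an antioxidant core at -64, on the opposite strand. Neither form of the hypoxia core was in these 3 windows. Over all 35116 windows of 300 bases in the table, 21.4% held ACGTG, 36.5% GCGTG, 13.3% the antioxidant core and 6.77% the heat shock core. The matches describe the letters of the windows, and binding was not measured.

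SLCO4A1 encodes OATP4A1, a widely expressed carrier of thyroid hormones and bile salts that is often raised in colorectal tumours. The gene (ENSG00000101187) occupies chromosome 20 from 62642503 to 62685785, plus strand. Control replicates 1 to 3 had 651, 708 and 643 counts, or 35.0, 34.7 and 36.1 CPM. The OD libraries had 1622, 1591 and 1328 counts, or 73.7, 70.6 and 70.7 CPM, all above the control libraries. SLCO4A1 rose 2.03-fold with OD, a log2 fold change of 1.02 (standard error 0.055, adjusted p = 1.72e-25). That value lies just above the threshold of 1, and it was 1.00 to 1.06 over the alternatives, above the threshold in each.

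With CoCl2, SLCO4A1 had 698, 519 and 794 counts, or 43.4, 40.2 and 41.6 CPM. Its log2 fold change was 0.25 with TMM scaling (standard error 0.059, adjusted p = 0.000163) but -0.26 when libraries were scaled by their size alone (adjusted p = 7.6e-05), so no direction can be given. The same choice moved the median log2 fold change of all tested genes with CoCl2 from -0.049 to -0.55. Relative to that median, SLCO4A1 was higher under either scaling. With library size alone, 23.9% of the genes called with CoCl2 were higher, in place of 46% with TMM.

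SLCO4A1 has an antisense neighbour, SLCO4A1-AS1, which overlaps 8.67% of its exonic bases on the other strand. That transcript had 5 to 9 counts in control cells, 6 to 13 with CoCl2 and 10 to 20 with OD. Its log2 fold changes were 0.57 with CoCl2 (adjusted p = 0.201) and 0.67 with OD (adjusted p = 0.123), and SLCO4A1-AS1 was not called. How the counting treated strand is not given in the sources used here, and the antisense counts are few beside the 519 to 1622 of SLCO4A1.

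SLCO2A1, whose values chose the set, was a low transcript in control cells. The gene (ENSG00000174640) occupies chromosome 3 from 133932701 to 134052184, minus strand, and shares no exonic base with another annotated gene. Control replicates 1 to 3 had 27, 21 and 18 counts, or 1.45, 1.03 and 1.01 CPM. With CoCl2 there were 5, 3 and 10 counts, or 0.311, 0.232 and 0.524 CPM. With OD there were 260, 241 and 222 counts, or 11.8, 10.7 and 11.8 CPM. The OD libraries stood far above the rest, and the CoCl2 libraries lay below the control libraries without overlap.

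The fitted log2 fold change of SLCO2A1 was 3.29 with OD (standard error 0.154) and -1.62 with CoCl2 (standard error 0.349). From the summed counts, the level with OD was 9.83 times that of control cells, with an exact 95% interval of 7.63 to 12.8. The level with CoCl2 was 0.322 times that of control cells, with an interval of 0.180 to 0.549. These intervals cover counting error only. The log2 difference of CoCl2 from OD was -4.91 (standard error 0.207). Without CoCl2 replicate 3, the library with 10 counts, the log2 fold change with CoCl2 was -2.05.

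SLCO4C1 encodes OATP4C1, a carrier known from the kidney, where it takes up digoxin and thyroid hormones. The gene (ENSG00000173930) occupies chromosome 5 from 102233986 to 102296284, minus strand. Control replicates 1 to 3 had 4, 17 and 25 counts, or 0.215, 0.833 and 1.40 CPM, a wide spread for their mean. With OD there were 57, 50 and 40 counts, or 2.59, 2.22 and 2.13 CPM. With CoCl2 there were 2, 1 and 2 counts, or 0.124, 0.0774 and 0.105 CPM. The 3 groups did not overlap, although control replicate 1 lay close to the CoCl2 libraries.

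In the fit across 9 libraries the log2 fold changes of SLCO4C1 were 1.51 with OD (standard error 0.275) and -2.88 with CoCl2 (standard error 0.586). Since SLCO4C1 entered that fit only through the OD libraries, the p-values are given from fits without that filter. In the edgeR fit with no count filter its log2 fold changes were 1.51 (adjusted p = 2.5e-08) and -2.95 (adjusted p = 2.57e-07). DESeq2 gave larger adjusted p-values, up to 0.00266 with OD (9 libraries) and 0.00305 with CoCl2 (6 libraries). With 5 counts in all, the CoCl2 level was 0.128 times the control level, with an exact 95% interval of 0.0398 to 0.322 for counting error. The sizes rested on the control libraries. Without control replicate 3 the log2 fold changes were 2.09 with OD and -2.31 with CoCl2, and without control replicate 1 they were 1.08 and -3.32. The calls held in each case, but these fits used the same filter, so they too are a description. In an edgeR fit of only the 6 CoCl2 and control libraries SLCO4C1 did not pass the filter and was not tested.

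**Figure D2:**
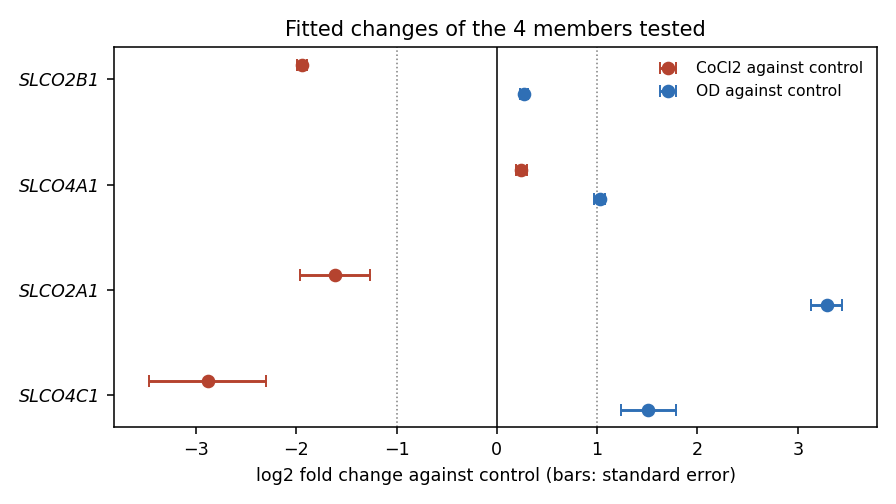
Fitted log2 fold change against control (horizontal axis) of the 4 tested members, with standard errors as bars and dotted lines at the thresholds of -1 and 1. With OD all 4 values lie to the right of 0, from 0.27 for SLCO2B1 to 3.29 for SLCO2A1, where the median of all tested genes was -0.010. With CoCl2 only SLCO4A1, at 0.25 with TMM scaling and -0.26 with library size alone, is not far to the left. The values of SLCO2A1 chose the set, and SLCO4C1 passed the filter only through its high OD libraries, so both are a description.

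The log2 differences of CoCl2 from OD were -2.21 for SLCO2B1 (standard error 0.049), -0.78 for SLCO4A1 (0.055) and -4.39 for SLCO4C1 (0.455). No library of either treatment overlapped the other for these genes. Since the contrast served to choose the set, these values are a description. With library size alone they were -2.76, -1.32 and -4.91, and that of SLCO2A1 was -5.45.

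SLCO3A1 encodes OATP3A1, a broadly expressed carrier of prostaglandins and thyroxine. It lies on chromosome 15, from 91853708 to 92172435. It had 0, 1 and 0 counts in control replicates 1 to 3, then 2, 0 and 1 with CoCl2 and 5, 3 and 1 with OD. The groups overlapped, and all but the OD replicate with 5 counts were at or under 3 counts, which correspond to 0.133 to 0.232 CPM in these libraries.

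SLCO1B3 encodes OATP1B3, the hepatocyte carrier of statins and bilirubin conjugates, and a shorter cancer-type transcript of it is known from colon tumours. It lies on chromosome 12, from 20810702 to 20916911. It had 1, 0 and 1 counts in control cells, 1, 0 and 1 with CoCl2 and none with OD. Its exons share 54.5% of their bases with the readthrough gene SLCO1B3-SLCO1B7 on the same strand, which had 0 counts in every library. Reads that fit both genes may not have been counted, so an absence of the transcript cannot be read from these counts.

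Of the 6 SLCO genes outside the set, none passed the filter. SLCO1A2 had 1 to 6 counts per library and SLCO6A1 0 to 3. SLCO1B1, SLCO1C1 and SLCO5A1 had at most 2 counts in any library, and SLCO1B7 had 0 in all 9.

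Between genes, levels were compared per length of the reference transcript (MANE Select), as CPM per kb. In control cells SLCO2B1 was at 40.6 ± 1.75 CPM per kb (SD, n = 3) and SLCO4A1 at 12.98 ± 0.262, far above SLCO2A1 at 0.286 ± 0.062 and SLCO4C1 at 0.161 ± 0.117. The last pair overlapped between libraries. With OD the order was the same, at 49.0 ± 0.516, 26.4 ± 0.637, 2.81 ± 0.159 and 0.456 ± 0.048 CPM per kb, and no neighbours overlapped. With CoCl2 SLCO4A1 led with 15.4 ± 0.601 CPM per kb, and SLCO2B1 followed at 10.5 ± 0.501, SLCO2A1 at 0.0875 ± 0.037 and SLCO4C1 at 0.0202 ± 0.005.

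The ratio of SLCO2B1 to SLCO4A1 within a library does not depend on the scaling between libraries. Per kb it was 2.99 to 3.30 in control cells, 1.79 to 1.90 with OD and 0.643 to 0.724 with CoCl2, without overlap. With all annotated exonic bases as the length, 10277 for SLCO2B1 and 3991 for SLCO4A1, the ratio was 1.87 to 2.07, 1.12 to 1.19 and 0.402 to 0.453. Under either length SLCO4A1 exceeded SLCO2B1 in the CoCl2 libraries only.

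Over all 12 SLCO genes, control cells had a summed level of 215 ± 7.4 CPM (SD, n = 3), CoCl2 cells 88.5 ± 3.05 and OD cells 299.95 ± 1.55. SLCO2B1 took most of this sum in control cells and with OD. With CoCl2 it shared the sum almost evenly with SLCO4A1, which took 45.7% to 48.7% against 15.7% to 17.0% in control cells and 23.5% to 24.5% with OD. The share of SLCO2A1 was 0.475% to 0.650% in control cells and 0.272% to 0.575% with CoCl2, and these overlapped. The SLCO2A1 share with OD lay above both. Without any scaling between libraries, SLCO2A1 thus stood out in the OD libraries, and its fall with CoCl2 was near that of SLCO2B1, with overlapping ratios of 128 to 172 SLCO2B1 counts per SLCO2A1 count in control cells and 92.6 to 192 with CoCl2.

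Prostaglandin handling genes were taken as a list of 19, covering the release of arachidonic acid, the synthases, the E-type receptors, export and breakdown. Of these, 12 were tested. With CoCl2, 2 were called higher and 5 lower, and 5 were not called, where 19.9% of all tested genes were called higher and 23.4% lower. The median log2 fold change was -0.72, beside -0.049 over all tested genes. With OD, 2 were called higher and 1 lower, and 9 were not called, where 9.09% of all tested genes were called higher and 4.16% lower. The median was -0.19, beside -0.010 over all genes. The counts for both treatments include PTGER2, which did not pass the filter without the OD libraries.

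PTGES, the inducible terminal synthase of prostaglandin E2, rose with OD from 2.96 ± 0.278 to 15.0 ± 0.88 CPM (SD, n = 3), a log2 fold change of 2.34 (standard error 0.116, adjusted p = 4.2e-27). Its log2 fold change with CoCl2 was -0.38 (adjusted p = 0.0441). PTGER2, the EP2 receptor for the same prostaglandin, rose with OD from 9 to 12 counts per library to 37 to 60. Its log2 fold change with OD was 2.02 (standard error 0.266). Without the OD libraries PTGER2 did not pass the filter, so its calls in the filtered fit are a description. With OD the adjusted p was 1.63e-12 by edgeR with no count filter and 5.35e-06 by DESeq2 on 9 libraries. With CoCl2 PTGER2 had 2 to 7 counts and a log2 fold change of -1.20. The edgeR fit with no count filter gave -1.26 (adjusted p = 0.0228). DESeq2 did not call it on 9 libraries (adjusted p = 0.0637) or 6 (adjusted p = 0.149). The call of the filtered edgeR fit was lost without CoCl2 replicate 1 (adjusted p = 0.0994). SLCO2A1, which chose the set, and PTGES and PTGER2 thus had their highest levels in the OD libraries. The listed genes as a whole did not rise with OD, with a median log2 fold change of -0.19.

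HPGD, the dehydrogenase that inactivates prostaglandins after uptake, fell with CoCl2 from 87.0 ± 9.97 to 18.6 ± 1.65 CPM (SD, n = 3), by 2.23 on the log2 scale (standard error 0.070, adjusted p = 1.77e-32). With OD it was at 97.3 ± 0.467 CPM, a log2 fold change of 0.16 (adjusted p = 0.0108). PTGES2, a constitutive synthase, had log2 fold changes of -1.89 with CoCl2 and -0.68 with OD. PTGR1, a reductase that breaks down prostaglandin and leukotriene products, rose with CoCl2 by a log2 fold change of 1.89 (adjusted p = 1.41e-40) and had one of 0.026 with OD. PTGIS, the prostacyclin synthase, fell by 2.22 with CoCl2 and by 1.33 with OD on the log2 scale, from 18 to 34 counts per control library, and the value with OD was -0.99 without control replicate 1.

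**Figure D3:**
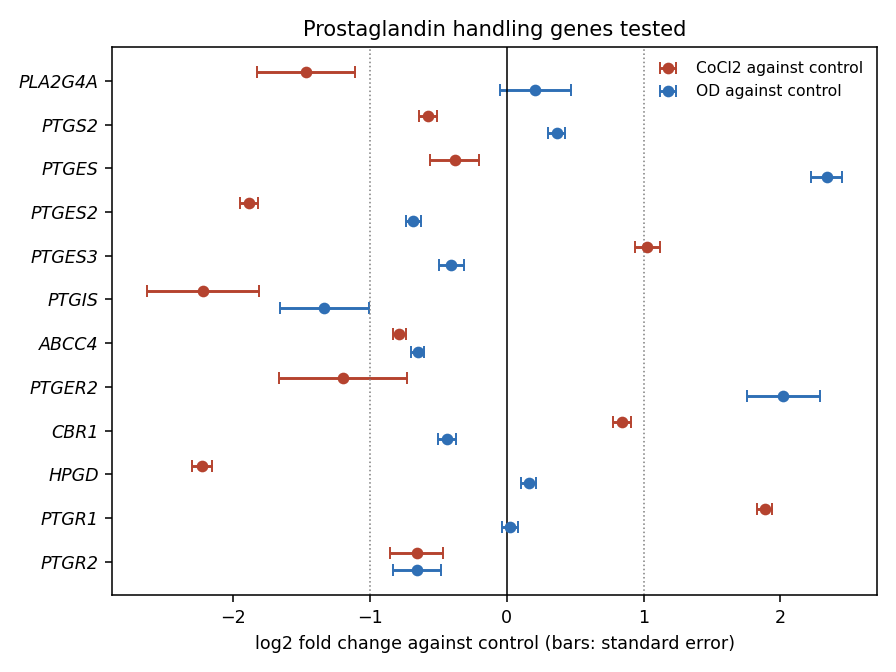
Log2 fold change against control (horizontal axis) of the 12 tested prostaglandin handling genes, with standard errors as bars and dotted lines at -1 and 1. PTGES and PTGER2 stand at 2.34 and 2.02 with OD, and HPGD at -2.23 and PTGR1 at 1.89 with CoCl2.

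The genes with the pattern most like that of SLCO2A1 were found by the root-mean-square difference of log2 CPM over the 9 libraries, each gene centred on its own mean. Among 13428 genes whose mean reached 1 CPM, the difference was smallest for SYT8 (0.167), a synaptotagmin, followed by TNNI2 (0.303), the fast skeletal troponin I. TP53I11 (0.560), CYS1 (0.599) and ADGRB2 (0.612) came next, and the median over all 13428 genes was 1.99. With CoCl2 the mean CPM of TP53I11, CYS1 and ADGRB2 were 0.297, 0.118 and 0.214, near or under the limit of 3 counts (0.133 to 0.232 CPM). SLCO2A1 at 0.356 and TNNI2 at 0.385 CPM were not far above it. A prior count of 2 was added before the log was taken, which draws such low values together. The sizes of the falls of all these genes with CoCl2, and their likeness there, are therefore uncertain. Mean CPM of SYT8 were 6.08 in the control, 1.99 in the CoCl2 and 48.3 in the OD libraries, and those of TNNI2 were 1.40, 0.385 and 17.9. Both lie on the plus strand of chromosome 11, SYT8 from 1828307 to 1837521 and TNNI2 from 1838981 to 1841680, with 1459 bases between them. The list is a description of likeness in these libraries, with no test.

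**Figure D4:**
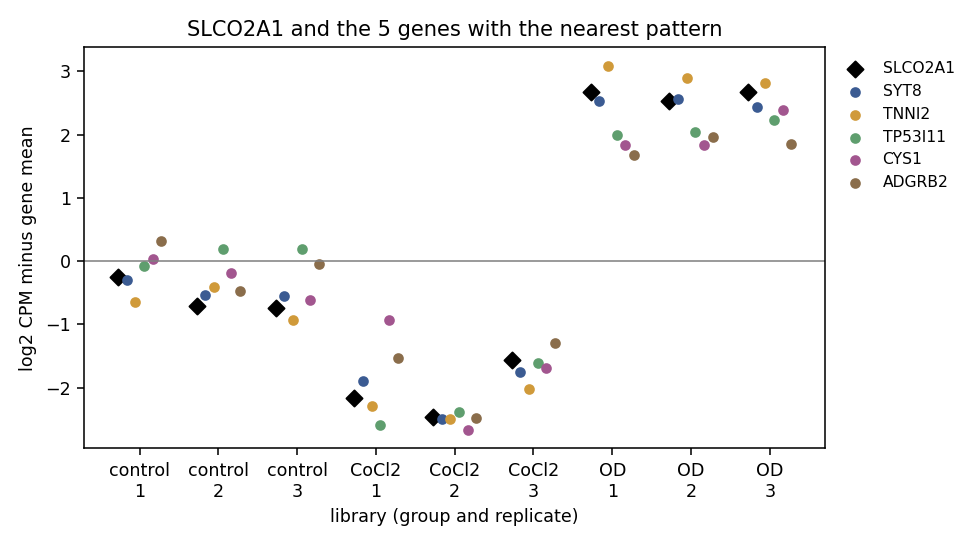
Log2 CPM minus the gene's mean (vertical axis) of SLCO2A1 (diamonds) and the 5 nearest genes (circles) in the 9 libraries (horizontal axis). All 6 genes lie above 1.5 in the OD libraries and below -0.9 in the CoCl2 libraries, and SYT8 differs from SLCO2A1 by 0.167 on average (root mean square).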

How the data were processed

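Messenger RNA was measured in 9 poly(A)-selected stranded libraries of uCaco-2 cells, 3 per condition, sequenced from one end over 75 nucleotides. After adapter trimming (cutadapt 2.10) and alignment to GRCh38.p13 (STAR 2.7.5b), the authors deposited raw counts per GENCODE gene symbol, without normalization. The counting tool and its treatment of strand and of reads that fit several genes are not given in the sources used here. All 9 columns were mapped to samples by title, and 0 were unused.

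The expression filter of edgeR 4.0.16 (R 4.3.3) kept 15944 of 60591 genes. A robust quasi-likelihood fit with TMM factors over the 9 libraries gave each gene's log2 fold change, its standard error and a p-value adjusted by Benjamini and Hochberg over all tested genes. The thresholds were those of the study. DESeq2 1.42.0, other scalings and filters, the 6 libraries of each comparison, a replicate block and leaving out each replicate were alternatives. Steps were tested on simulated data. Exon and transcript lengths came from GENCODE release 44 on GRCh38, a later release than that of the counts. Promoter sequences are those of RefSeq for GRCh38.p14.

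The members, gene lists and tests were chosen with earlier results of these data known. Named were the 6 members, other SLCO genes, up to 6 called genes per list, largest change first, and the 5 genes nearest to SLCO2A1. EPCAM and the other markers stand for their lists. A listed gene is not reported here. An exact permutation test of 3 against 3 libraries cannot go below p = 0.1 and was not used. Replicates of a condition differed beyond sampling noise (chi-square per degree of freedom 1.82 to 3.32). No molecular identifiers marked PCR copies, so intervals and the limit of 3 counts cover counting error only.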

Additional observations from a re-analysis of the deposited data

How the results depend on the processing

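The direction of the 4 tested members against control was kept under the alternatives in which they could be fitted, except that of SLCO4A1 with CoCl2, which turned to -0.26 on the log2 scale with library size alone. The same scaling turned SLC7A8 with CoCl2 to -0.24. The number of members called besides SLCO2A1 was 1 with CoCl2 in a fit of its own 6 libraries, and 1 with either treatment when at least 10 counts were required in every library. SLCO4C1 could not be fitted in these cases, nor SLCO2A1 under that filter. That filter also gave 1134 called genes with OD and left 3 called prostaglandin genes with CoCl2 and 1 with OD, as fewer genes were tested. By the adjusted p alone, 13260 genes were called with CoCl2 and 10466 with OD, of which 12 and 10 were prostaglandin genes. The log2 fold change of SLC22A9 with OD, -0.012, was 0.0045 on 6 libraries and 0.028 with library size alone, and ran from -0.44 to 0.39 with 1 replicate left out. That of PTGR1 with OD ran from -0.021 to 0.098.

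The replicate numbers did not pair the samples, since same-numbered libraries of different conditions had correlations of -0.0049 to 0.038 between their deviations. With the replicate block 6901 genes were called with CoCl2 and 2115 with OD, against 6891 and 2113, and no call of a member changed. Depth limits SLCO1B3 and SLCO3A1, which lie near 3 counts or below, and the sizes of the changes of SLCO4C1 and SLCO2A1 with CoCl2.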

Other observations

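Other carriers of organic ions and drugs were taken as a list of 15 genes, of which 10 were tested. With CoCl2, 4 were called lower and 0 higher, around a median log2 fold change of -0.86, where 23.4% of all tested genes were called lower and 19.9% higher around a median of -0.049. With OD, 1 was called higher and 0 lower, around a median of 0.26, where 9.09% of all tested genes were called higher and 4.16% lower around a median of -0.010. SLC15A1, the peptide and drug transporter PEPT1 of the brush border, was that gene. It went from 9.63 ± 0.381 CPM in control cells to 32.6 ± 1.86 with OD and 4.34 ± 0.529 with CoCl2 (SD, n = 3), log2 fold changes of 1.76 (adjusted p = 4.61e-29) and -1.14 (adjusted p = 3e-13). SLC22A11, the urate and anion transporter OAT4, fell by 1.42 on the log2 scale with CoCl2 (adjusted p = 2.12e-12) and had 0.69 with OD. SLC22A3, an organic cation transporter, fell from 26 to 31 counts per control library to 2 to 4 with CoCl2. SLC22A9 had 5 to 18 counts in control cells and 1 or 2 with CoCl2. Without the OD libraries it did not pass the filter, so the 4 called lower with CoCl2, which include SLC22A9, are a description.

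Of 10 genes of thyroid hormone handling, 7 were tested. With CoCl2, 2 were called lower and 1 higher (CRYM), shares near the 23.4% lower and 19.9% higher of all tested genes. With OD 1 was called higher and 0 lower, where 9.09% of all tested genes were called higher and 4.16% lower. The medians were -0.51 with CoCl2 and 0.43 with OD on the log2 scale, beside -0.049 and -0.010 over all tested genes. DIO1, which deiodinates thyroxine, fell by 2.11 on the log2 scale with CoCl2 (adjusted p = 7.21e-15), and SLC16A10, an aromatic amino acid and iodothyronine carrier, by 1.08. CRYM, a thyroid hormone binding protein, had a log2 fold change of 1.73 with CoCl2. Its libraries overlapped, at 3 to 7 counts in control cells and 7 to 18 with CoCl2. Without the OD libraries CRYM did not pass the filter, so its call as higher in the filtered fit is a description. The edgeR fit with no count filter gave 1.67 (adjusted p = 0.00122). DESeq2 on 9 libraries gave 1.84 (adjusted p = 0.0188). SLC7A8 rose with OD by a log2 fold change of 1.13 (adjusted p = 2.51e-24), as SLCO4A1 did by 1.02.

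Of 6 transcription factors known to act on SLCO1B genes, 4 were tested. Among them, NR1H4, the bile acid receptor, had 0 counts in control cells, 91 to 119 with CoCl2 and 0 or 1 with OD. SLCO1B3 stayed at 0 or 1 count in all these libraries.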
